A study of Homo sapiens with 6 samples.

Results

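The metallothionein and zinc response genes are 8 of the 46427 genes in the deposited table, chosen by gene symbol, with earlier results of these data known. They are the metallothionein genes MT1E, MT1F, MT1G, MT1M, MT1X, and MT2A, the transcription factor gene MTF1, and the zinc transporter gene SLC30A1. Total RNA was sequenced from H460, H1299, and A549, all NSCLC cell lines, with a control and a si-MALAT1 library in each. The 3 cell lines are established tumor lines, H460 from a large cell carcinoma, H1299 from a lymph node metastasis of an NSCLC, and A549 from an adenocarcinoma of the lung. The labels give the control cells as not treated and the others as transfected with siRNA against MALAT1, a nuclear long noncoding RNA, for MALAT1 knockdown. In the methods, cells treated with si-Control appear beside negative controls, with neither tied to a library, so transfection and si-MALAT1 cannot be told apart.

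Metallothioneins are small, cysteine-rich proteins that bind zinc and copper in normal metabolism and cadmium after exposure. MTF1 is a zinc-finger transcription factor that senses free zinc and binds metal response elements, short DNA motifs in the promoters of metallothionein genes and of SLC30A1. SLC30A1 (ZnT1) moves zinc out of the cell across the plasma membrane.

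The 6 metallothionein members lie in 1 cluster on chromosome 16, in the order MT2A, MT1E, MT1M, MT1F, MT1G, and MT1X. In the deposited annotation on GRCh38, MT2A (Gene ID 4502) covers chr16:56608584-56609497 on the plus strand and MT1X (Gene ID 4501) covers chr16:56682470-56684196 on the plus strand. Between them lie MT1E (Gene ID 4493) at chr16:56625781-56627112, MT1M (Gene ID 4499) at chr16:56632659-56633981, and MT1F (Gene ID 4494) at chr16:56657943-56659303, also on the plus strand. MT1G (Gene ID 4495) at chr16:56666730-56668065 is the member of the cluster on the minus strand. Each of these 6 genes is annotated as protein coding with 3 exons. MTF1 (Gene ID 4520) covers chr1:37809570-37859614 and SLC30A1 (Gene ID 7779) covers chr1:211571568-211579161, both on the minus strand.

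Promoter sequences, from 250 bases before to 50 bases after the gene start, were found in the RefSeq table on GRCh38.p14 for 4 of the 8 members, namely MT2A, MT1X, SLC30A1, and MTF1. They were searched on both strands for the core of the metal response element, spelled TGCACNC or TGCGCNC with N for any base. MT2A held 8 matches and MT1X held 4, and no match overlapped another. SLC30A1 held 2 and MTF1 held 0. Of 35116 promoters of the same length, 29.6% held at least 1 match, 8.6% held as many as SLC30A1, 0.601% as many as MT1X, and 0.0199% as many as MT2A. A match describes the letters in the window and is not evidence that MTF1 was bound there. The 4 sequences that follow are shown because these 3 promoters each had a match about the same distance before the gene start, and because MT2A and SLC30A1 held the same core. They are written 5' to 3' on the strand of the gene, with the matched core in capitals and up to 6 bases on either side.
MT2A, 54 bases before the start, chr16:56608530-56608536, plus strand: ggctttTGCACTCgtcccg
MT1X, 53 bases before the start, chr16:56682417-56682423, plus strand: ggcctcTGCGCCCggccct
SLC30A1, 49 bases before the start, chr1:211579204-211579210, minus strand: ggttccGAGTGCAaagcaa
SLC30A1, 24 bases after the start, chr1:211579131-211579137, minus strand: cgggccGAGTGCAgctgcc
In both SLC30A1 sequences the core is on the opposite strand, where GAGTGCA reads TGCACTC, the core found in MT2A.

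**Figure D1:**
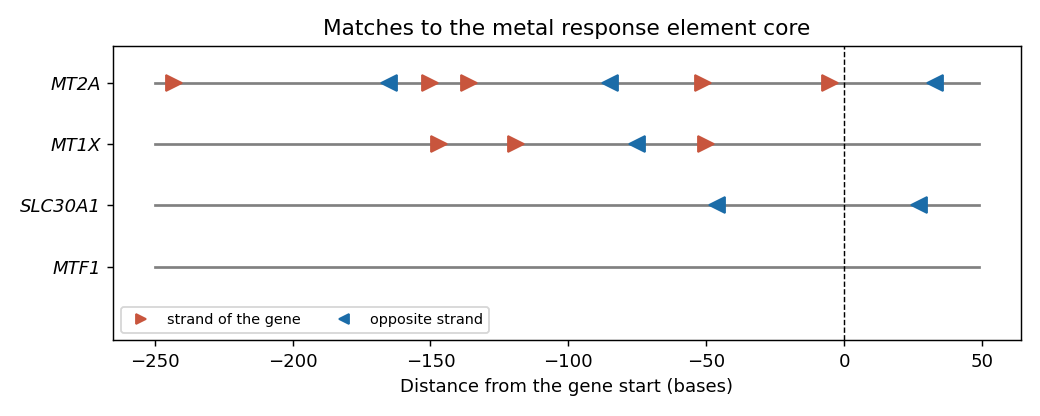
The plot shows where matches to the metal response element core lie in the promoters of MT2A, MT1X, SLC30A1, and MTF1, with the distance from the gene start in bases on the x axis and arrowheads for the strand of the match. MT2A has 8 matches, MT1X 4, SLC30A1 2, and MTF1 0.

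Read counts summed to between 42506818 and 68515992 per library, with A549 the least deep. MALAT1 checked the labels, since its read count was lower after si-MALAT1 in each cell line, at a log2 fold change of -2.96 in H1299, -2.84 in A549, and -2.32 in H460. The epithelial keratin genes KRT8 and KRT18 had 11408 reads or more in each library. Of the blood cell genes, PTPRC and CD3E were at 0 in the 6 libraries, while CD14, given below, was not. The other epithelial markers were not high throughout. CDH1 had 13 and 11 reads in H460 and 2 and 12 in H1299, against 4693 and 7373 in A549. KRT19 had 44567 and 33570 reads in H460, against 21 and 17 in H1299 and 44 and 121 in A549. EPCAM had between 23 and 485 reads per library. CDKN2A, which is deleted in H460 and A549, had 0 reads in those lines and 2938 and 2679 reads in H1299. Of the 7 markers of other cell types, the fibroblast gene COL1A1 had at least 1.5-fold more reads after si-MALAT1 in the 3 cell lines, from 175 to 472 in H460, 38 to 144 in H1299, and 267 to 469 in A549. Of all genes with a read in each library, 1.19% were at least 1.5-fold higher in the 3 lines. Of the 5 epithelial markers, EPCAM did the same, while KRT8 and KRT18 were lower in the 3 cell lines, at log2 fold changes of -1.16 and -1.23 in A549 and between -0.48 and -0.10 in the others. The edgeR paired test called 0 of either list, DESeq2 called COL1A1 higher, and the part of these genes in the results was not tested. The other blood cell gene, CD14, had 648 and 840 reads in H460, 219 and 490 in A549, and 3 and 3 in H1299. Its log2 fold change was 0.46 in H460 and 1.01 in A549. The remaining markers of other cell types had 33 reads or fewer.

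Levels are given first as TPM, which the authors scaled for gene length and depth, so that genes can be set side by side. MT2A, the most widely expressed metallothionein, was the highest member in each of the 6 libraries. Its level was 118 TPM in the H460 control library and 108.8 TPM after si-MALAT1. In H1299 it was 215 and 192 TPM, and A549 had 68.4 and 46.4 TPM. Both H1299 libraries were above both H460 libraries, which were above both A549 libraries. MT1X was at 9.75 and 10.4 TPM in H460, at 45.0 and 48.1 TPM in H1299, and at 35.3 and 22.9 TPM in A549, again with no overlap between the cell lines, but in the order H1299, A549, H460. The ratio of MT2A to MT1X in TPM was therefore 12.1 in the H460 control library and 10.5 after si-MALAT1, whereas H1299 had ratios of 4.77 and 4.00 and A549 of 1.94 and 2.02. The share of all genes that separate the cell lines without overlap was not counted. In the edgeR test below, 38.2% to 52.6% of all genes tested differed between a given pair of cell lines.

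The remaining metallothionein members were low or not detected. MT1F was at 3.93 and 4.28 TPM in H460 and at 3.10 and 2.26 TPM in A549, and had 0 reads in both H1299 libraries. MT1G was detected in H460 alone, at 1.82 and 2.08 TPM (44 and 52 reads). MT1E had 22 and 16 reads in H460, 4 and 0 reads in H1299, and 0 reads in A549. MT1M had 0 reads in the 6 libraries, and a count of 0 allows up to 3 reads per library. H460 was thus the line with reads for 5 of the 6 metallothionein members, H1299 had reads for MT2A and MT1X and a few for MT1E in 1 library, and A549 had reads for MT2A, MT1X, and MT1F.

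MTF1, the sensor, was expressed at a far lower level than MT2A, at 1.76 and 1.41 TPM in H460, with 1.97 and 3.39 TPM for H1299 and 0.967 and 1.32 TPM for A549. The A549 libraries were the lowest, and the H460 and H1299 control libraries lay close together. SLC30A1, the exporter, was at 20.2 and 13.3 TPM in H460, with 4.52 and 5.07 TPM for H1299 and 15.1 and 12.4 TPM for A549. The H1299 libraries were the lowest, while the H460 and A549 libraries overlapped. By TPM, SLC30A1 came second to MT2A among the members in H460, and MT1X came second in H1299 and A549.

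**Figure D2:**
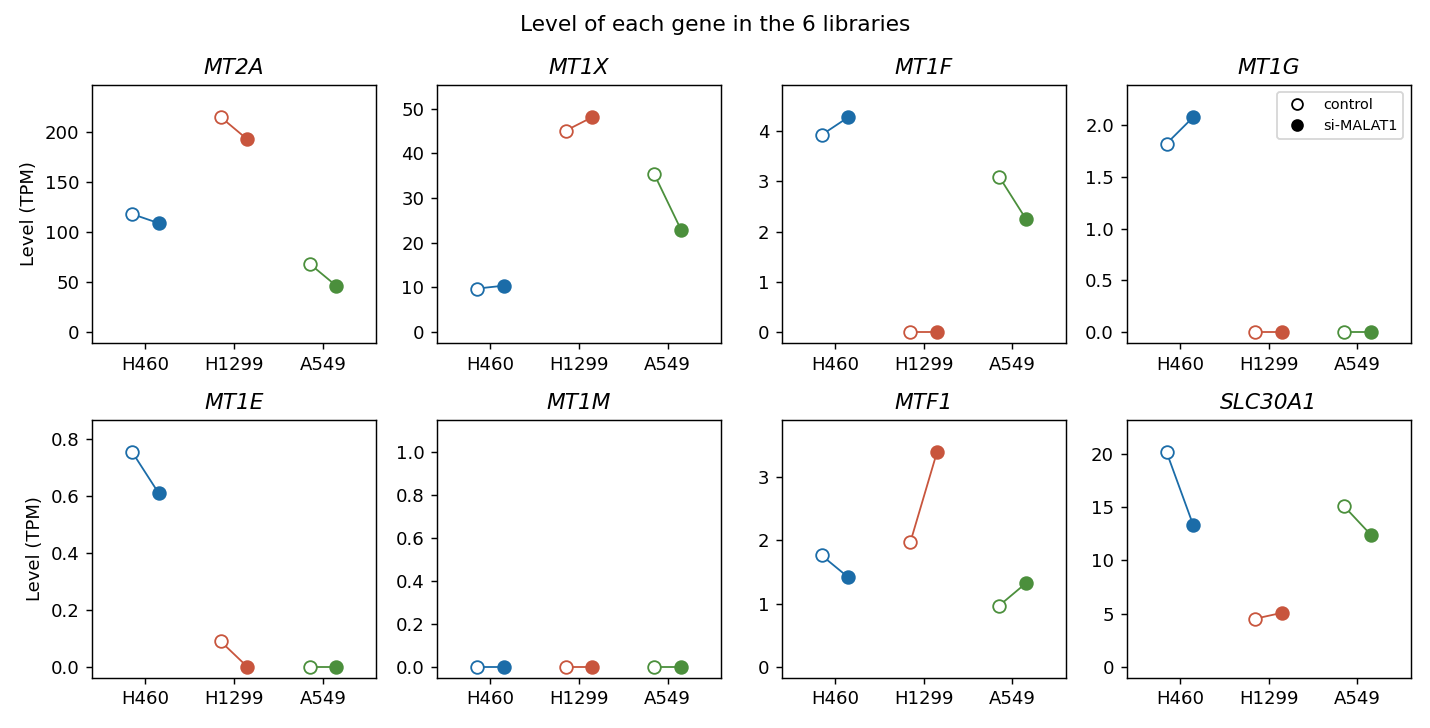
The plots show the level in TPM (y axis, a scale of its own for each gene) of the 8 members in the control libraries (open circles) and si-MALAT1 libraries (filled circles) of H460, H1299, and A549 (x axis), 1 library per point, with a line joining the libraries of a cell line. MT2A and MT1X are highest in H1299, where MT1F and MT1G are at 0 and SLC30A1 is lowest.

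MT2A made up most of the metallothionein RNA in each library. Over the members and the 12 other metallothionein genes and pseudogenes found in the table, the summed level was 164 and 159 TPM in H460, with 260 and 242 TPM for H1299 and 109.1 and 76.4 TPM for A549. MT2A was 72.1% and 68.3% of that sum in H460, with 82.5% and 79.6% for H1299 and 62.7% and 60.7% for A549. Of the 12 other genes, 6 had 0 reads in the 6 libraries and 2 had enough reads to be tested. MT1A, which was chosen after its values were seen, had 648 and 778 reads in H460, 17.2% and 20.4% of the sum in TPM, against 0 and 3 reads in H1299 and 0 and 38 reads in A549.

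Because metallothionein genes are near copies of one another, their annotated transcripts were compared in windows of 50 bases. Of these windows, 20% in MT1X, 17.4% in MT1G, 14.6% in MT1M, and 11.1% in MT2A were also found in the transcripts of another metallothionein gene or pseudogene of the annotation, against 4.83% in MT1E and 4.98% in MT1F. MT1X shared the most windows with MT1G, and MT2A with the pseudogene MT2P1. No window of 100 bases in a member was shared. A read that lay wholly within a shared window could not be told apart by sequence, and how many reads did so was not counted. The split of reads between MT1X and MT1G, and the small counts of MT1E, MT1F, and MT1G, are uncertain in that respect.

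The next comparison asked whether the members differed between the cell lines. It used edgeR's quasi-likelihood test on the read counts over all 19122 genes that passed the low-count filter, with the treatment as a covariate, Benjamini-Hochberg adjustment, and 2 libraries per cell line. These 2 libraries differ in treatment, so no cell line was replicated within a condition. The spread behind the p-values is how the lines differ in their response to si-MALAT1, with 2 residual degrees of freedom. Of the members, MT1F, MT1X, MT2A, MTF1, and SLC30A1 passed the filter. MT1F, with 0 reads in H1299, passed only through H460 and A549, so its contrasts with H1299 had to differ and are given without a test. Of the 4 members with a read in each library, 3 differed between H1299 and H460 (MT1X, MT2A, and SLC30A1), beside 52.6% of all genes tested. The same 3 differed between A549 and H460, beside 38.2% of all genes, and MT2A, MTF1, and SLC30A1 differed between A549 and H1299, beside 48.9%. Between A549 and H460 the number of members called changed when single libraries were left out, and so did the number of all genes called. Such fits leave 1 library for a cell line. These lines differ in a large share of all genes, and the members' counts are to be read against those shares.

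SLC30A1 differed between each pair of cell lines. It was lower in H1299 than in H460 by a log2 difference of -2.12 (edgeR adjusted p = 0.000235), with mean RLE-scaled counts of 1263 in H1299 and 5529 in H460, a ratio of 4.38. It was higher in A549, at a mean scaled count of 3746, than in H1299, by 1.57 (edgeR adjusted p = 0.000832). Its difference between A549 and H460 was -0.56 (edgeR adjusted p = 0.0435), which did not hold without the H460 control library (adjusted p = 0.251), the A549 control library (0.222), or the A549 si-MALAT1 library (0.260), nor without the low-count filter (0.0691) or the treatment term (0.0849). In H1299, where MT2A and MT1X had their highest means, the exporter had its lowest.

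MT2A was lower in A549 than in H460 by -1.30 (edgeR adjusted p = 0.00222) and lower than in H1299 by -1.78 (edgeR adjusted p = 0.000510). Both calls held under each alternative, at adjusted p of at most 0.0321 and 0.00710. MT2A was higher in H1299 than in H460 by 0.49 (edgeR adjusted p = 0.0488), a call that 7 alternatives did not keep. Its adjusted p was 0.298 without the H460 control library, 0.115 and 0.150 without the H1299 control or si-MALAT1 library, 0.0700 and 0.0649 without the A549 control or si-MALAT1 library, 0.0720 without the low-count filter, and 0.102 without the treatment term. MT1X was higher in H1299 than in H460 by 1.85 (edgeR adjusted p = 0.00157), and higher in A549 than in H460 by 1.22 (edgeR adjusted p = 0.0117, but 0.0571 without the H460 control library and 0.108 without the A549 control library). The A549 and H1299 libraries did not differ past the threshold in MT1X, at a log2 difference of -0.63 (edgeR adjusted p = 0.0765), and did so without the H460 control library (0.0413) or the H460 si-MALAT1 library (0.0407).

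MT1F had 0 reads in H1299, and against a floor of 3 reads per library it was at least 39.4-fold higher in H460 and at least 21.5-fold higher in A549. Between A549 and H460 MT1F had a log2 difference of -0.88 (edgeR adjusted p = 0.207). MT1G, which was too low for the test, was at least 17.6-fold higher in H460 than in H1299 and at least 11.6-fold higher than in A549 against the same floor. MT1E was at least 4.56-fold higher in H460 than in A549 against that floor. These folds divide the mean scaled count of the higher line by the floor. They leave out the counting error of the higher line, so "at least" covers only the line at 0 reads. MTF1 was lower in A549 than in H1299 by -1.10 (edgeR adjusted p = 0.0136), a call that was lost without the A549 control library (0.104), the H1299 si-MALAT1 library (0.0968), or the A549 si-MALAT1 library (0.0709). MTF1 did not differ past the threshold between H1299 and H460 (0.33, edgeR adjusted p = 0.310) or between A549 and H460 (-0.77, edgeR adjusted p = 0.0575). The first rested on single libraries: it was 0.74 without the H460 control library (edgeR adjusted p = 0.0421) but 0.02 without the H1299 si-MALAT1 library and -0.08 without the H460 si-MALAT1 library (edgeR adjusted p = 0.974 and 0.833). The second passed without the H1299 control library (0.0405), the H460 si-MALAT1 library (0.00930), or the H1299 si-MALAT1 library (0.0459).

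The remaining comparison asked what changed after si-MALAT1. Within a cell line the log2 fold change was taken between RLE-scaled counts plus 1, si-MALAT1 minus control. Each condition had 1 library in a cell line, so these values have no replicate check, and their 95% Clopper-Pearson intervals cover counting error only. Of the members, MT1X, MT2A, MTF1, and SLC30A1 had at least 1 read in each library. Past a change of 1.5-fold in either direction were 0 of these 4 in H460, beside 19.8% of the 17834 genes with a read in each library. In H1299 it was 1 of 4, MTF1, beside 23.1%, and in A549 1 of 4, MT1X, beside 22.9%. Both lie near the threshold of 0.58 on the log2 scale under 1 alternative each, and neither passed there. MTF1 in H1299 was at 0.56 on log2(TPM + 1), where 1 was added to levels of 1.97 and 3.39 TPM. MT1X in A549 was at -0.58 with scaling to the total count.

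MT2A had read counts of 2756 and 2642 in the control and si-MALAT1 libraries of H460, with 4966 and 3886 for H1299 and 959 and 725 for A549. The H460 libraries gave a value of 0.02 on the log2 scale (95% interval -0.06 to 0.10), the H1299 libraries -0.22 (-0.28 to -0.16), and the A549 libraries -0.55 (-0.69 to -0.41). MT1X had 230 and 254 reads in H460, with 1050 and 978 for H1299 and 499 and 362 for A549. Its log2 fold changes, in the same order of lines, were 0.22 (-0.04 to 0.49), 0.03 (-0.10 to 0.16), and -0.61 (-0.81 to -0.41). In both genes the A549 libraries had the most negative value, and the H460 interval included 0. MT1F, with 102 and 113 reads in H460 and 49 and 40 in A549, had log2 fold changes of 0.23 (-0.17 to 0.63) and -0.43 (-1.08 to 0.19), intervals that leave the direction unresolved. In H460, MT1G had a value of 0.32 (-0.28 to 0.94) and MT1E of -0.36 (-1.40 to 0.62), and at these depths no change was detectable in either.

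MTF1 had 805 and 679 reads in H460, with 863 and 1356 for H1299 and 267 and 418 for A549. The log2 fold change of MTF1 was -0.16 (-0.31 to -0.01) in H460, 0.78 (0.66 to 0.91) in H1299, and 0.50 (0.28 to 0.73) in A549. The H460 libraries thus had the opposite sign from the others. On log2(TPM + 1) the A549 value was 0.24, with 1 added to levels of 0.967 and 1.32 TPM. SLC30A1 had 6928 and 4756 reads in H460, with 1539 and 1506 for H1299 and 3110 and 2853 for A549. Its log2 fold change was -0.46 (-0.51 to -0.41) in H460 and -0.27 (-0.34 to -0.20) in A549, while the H1299 value was 0.10, with an interval from just under 0 to 0.20. In each of MT1X, MTF1, and SLC30A1, 1 cell line had a log2 fold change of the opposite sign from the others. MT2A did too, but its H460 value turned to -0.00 with TMM normalization and -0.12 on log2(TPM + 1). Counting intervals included 0 for MT1X in H460 and H1299, for SLC30A1 in H1299, and for MT2A in H460, so those signs were not resolved. Over all genes with a read in each library, 18.8% were lower in the 3 cell lines and 21.4% higher.

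**Figure D3:**
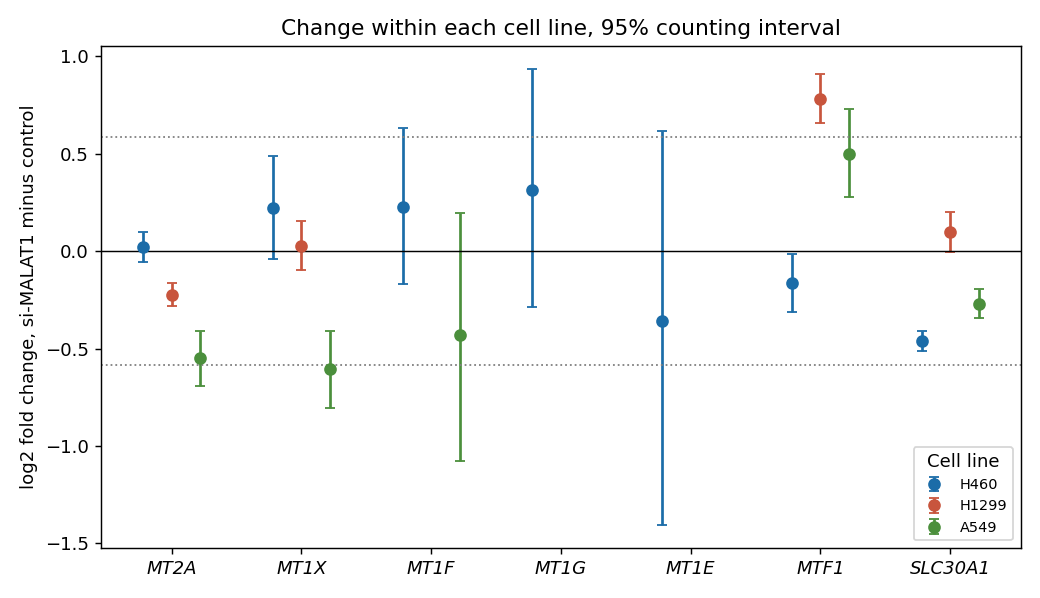
The plot shows the log2 fold change (y axis, si-MALAT1 minus control) of each member in H460, H1299, and A549, where the points are 1 library against 1 library, the bars are 95% counting intervals, and the dotted lines mark a change of 1.5-fold. MTF1 in H1299 and MT1X in A549 lie past the lines, and MT1E and MT1G were plotted for H460 alone because of their low counts. MT1M had no reads to plot.

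The 3 pairs of libraries, a si-MALAT1 library and the control of its own line, were then tested together in edgeR's quasi-likelihood test. Of the members tested, 0 of 5 differed after si-MALAT1, beside 0.00523% of the 19122 genes tested, which was MALAT1 alone (edgeR adjusted p = 0.0381). The test left 2 residual degrees of freedom. An unadjusted p under 0.05 was found for 2863 of the 19122 genes tested and 0 of the 5 members. With 5 members, these shares cannot be compared. The mean log2 fold change over the 3 cell lines was -0.25 ± 0.29 (SD, n = 3) for MT2A (edgeR adjusted p = 0.438) and -0.12 ± 0.43 (SD, n = 3) for MT1X (edgeR adjusted p = 0.803). For MTF1 it was 0.37 ± 0.49 (SD, n = 3) with an edgeR adjusted p of 0.489, and for SLC30A1 -0.21 ± 0.28 (SD, n = 3) with an edgeR adjusted p of 0.504. MT1F had an edgeR adjusted p of 0.978. In each of MT1X, MT2A, MTF1, and SLC30A1, the SD between cell lines was larger than the size of the mean. DESeq2, the alternative test, gave 4 members an adjusted p, of 0.442 for MT2A, 0.876 for MT1X, 0.481 for MTF1, and 0.513 for SLC30A1, and so called 0 of 4, where it called 4.86% of 13117 genes lower and 5.3% higher.

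The other genes of zinc handling were read from lists fixed by symbol. Most transporters of the SLC39A (ZIP) family bring zinc into the cytosol, and most but not all of the SLC30A (ZnT) family move it out. Of 14 SLC39A genes, SLC39A12 had 0 reads in the 6 libraries and 11 had at least 1 read in each. Of these 11, 7 were lower and 1 was higher after si-MALAT1 in the 3 cell lines (6 and 1 on log2(TPM + 1)), beside 18.8% and 21.4% of all genes with a read in each library. Their median log2 fold change was -0.31 in H460, -0.13 in H1299, and -0.41 in A549, where the median over all genes was 0.02, 0.02, and 0.01. In edgeR's paired test, 0 of the 12 SLC39A genes tested differed. DESeq2 called 3 of 10 lower and 1 of 10 higher, beside 4.86% and 5.3% of all genes it tested.

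SLC39A10 and SLC39A14, both importers at the plasma membrane, were at least 1.5-fold lower in the 3 cell lines, a pattern shown by 1.28% of all genes with a read in each library (1.19% were at least 1.5-fold higher in the 3 lines). SLC39A10 had 9624 and 5160 reads in H460, with 7796 and 2967 for H1299 and 7735 and 2560 for A549. The mean log2 fold change of SLC39A10 was -1.27 ± 0.46 (SD, n = 3), and its adjusted p was 0.0768 by edgeR and 3.51e-07 by DESeq2. SLC39A14 had 10757 and 6311 reads in H460, with 6877 and 3760 for H1299 and 9566 and 5325 for A549, a mean log2 fold change of -0.81 ± 0.16 (SD, n = 3). Its adjusted p was 0.0762 by edgeR and 2.30e-09 by DESeq2. The third gene that DESeq2 called lower was SLC39A9, at -0.90 ± 0.32 (SD, n = 3), and the gene it called higher was SLC39A13, at 0.54 ± 0.18 (SD, n = 3), with DESeq2 adjusted p of 1.14e-05 and 0.0108. These last genes were chosen after their values were seen, and their edgeR adjusted p was 0.0897 and 0.155. Without the H460 libraries, the edgeR adjusted p was 0.0230 for SLC39A10 and 0.0383 for SLC39A9, and each of the other transporters named stayed above 0.05 with any 1 cell line left out.

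Of the 9 SLC30A genes other than SLC30A1, 2 had 0 reads in the 6 libraries and 5 had at least 1 read in each. Of these 5, 3 were lower and 1 was higher in the 3 cell lines (3 and 0 with TMM normalization), beside 18.8% and 21.4% of all genes. The median log2 fold change of the 5 was -0.15 in H1299, -0.33 in A549, and -0.08 in H460. In edgeR's paired test 0 of 6 differed, and DESeq2 called 1 of 5 lower, beside 4.86% of all genes it tested. That gene, SLC30A9, had a mean log2 fold change of -0.67 ± 0.28 (SD, n = 3) and adjusted p of 0.117 by edgeR and 0.000876 by DESeq2, and was named after its values were seen. SLC30A1, by comparison, had a log2 fold change of 0.10 in H1299.

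**Figure D4:**
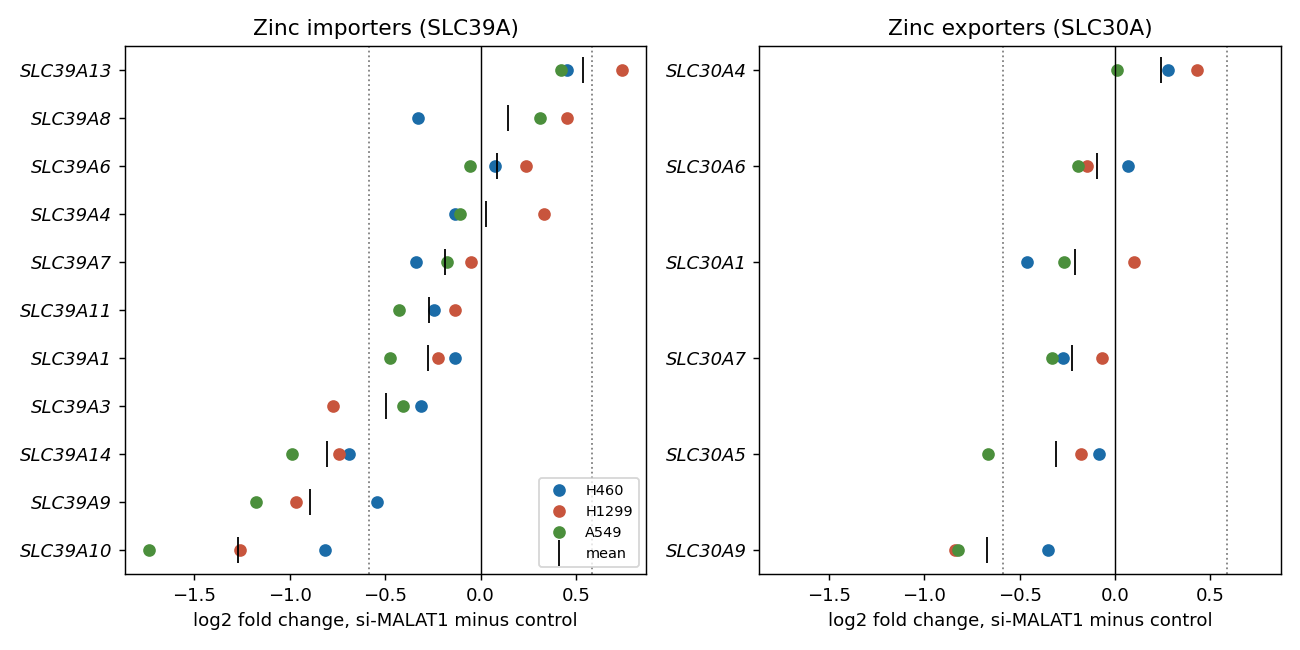
The plots show the log2 fold change (x axis, si-MALAT1 minus control) of the SLC39A importers and the SLC30A genes, SLC30A1 included, that had a read in each library, with 1 point per cell line, a tick at the mean, and dotted lines at a change of 1.5-fold. SLC39A10 and SLC39A14 lie past the lower line in the 3 cell lines, and the SLC30A1 points fall on both sides of 0.

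Other genes of the response to metals, oxidants, or steroid hormones were set beside the members, because metallothionein genes respond to the same agents. The lists also hold the glucocorticoid receptor gene itself and genes of copper handling. Of the 9 metal and oxidative stress genes, edgeR's paired test called 0 and DESeq2 called 1 of 8 lower, the cystine transporter gene SLC7A11 (DESeq2 adjusted p = 0.0304). Their median log2 fold change was -0.60 in A549, where 5 of them were past 1.5-fold, against 0.33 in H460 and 0.00 in H1299, where 2 and 2 were. Over all genes with a read in each library, 22.9% were past 1.5-fold in A549, 19.8% in H460, and 23.1% in H1299. Of the 9 glucocorticoid response genes, edgeR called 0 of 8 and DESeq2 called 2 of 8 higher, NR3C1, the glucocorticoid receptor gene (DESeq2 adjusted p = 1.91e-07), and its target FKBP5 (DESeq2 adjusted p = 0.00339). That list had medians of -0.24 (H460), 0.62 (H1299), and 0.39 (A549), and 3 of its genes were higher in the 3 cell lines, beside 21.4% of all genes. DESeq2 called 4.86% of all genes it tested lower and 5.3% higher. SLC7A11, NR3C1, and FKBP5 were named after their values were seen. Of the 8 copper handling genes, edgeR and DESeq2 each called 0, with medians of 0.02 (H460), 0.06 (H1299), and 0.01 (A549).

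Finally, genes whose pattern over the 6 libraries was most like that of the metallothioneins were listed as a description. The pattern was the mean of log2(scaled count + 1) over MT1F, MT1X, and MT2A, and the likeness was Pearson's r across 6 libraries from 3 cell lines. CGRRF1 (r = 0.998), MRPL55 (0.996), ADAP1 (0.994), HYKK (0.993), and OSGEP (0.993) came first, but 1440 of the 15898 genes compared had an r above 0.9. MT1F itself had an r of 0.974 with that mean, against -0.777 for MT1X and -0.470 for MT2A, so the mean mostly follows the counts of 0 for MT1F in H1299. SLC30A1 had an r of 0.962 with it and MTF1 of -0.573.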

How the data were processed

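RNA-seq was performed on 6 libraries, and each was assigned to a cell line and treatment from the labels. Trimmed reads were aligned by the authors to hg38 (HISAT2 2.1.0), and abundances were estimated with StringTie. The submitters' processing notes give StringTie 1.3.4b, where the methods name a later version, and list hg19 beside GRCh38. In the deposited annotation, 20 of 20 coding sequences of the genes described start with ATG in hg38. The deposited read counts are whole numbers and not normalized, and the deposited FPKM and TPM were scaled by the authors for length and depth (FPKM was not used here). Libraries were made with a stranded kit after removal of ribosomal RNA, and whether counting used the strand is not given in the sources used here. Another 18 columns of per-sample values belong to other samples and were not used.

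From the deposited counts, edgeR 4.0.16's quasi-likelihood test was run with TMM normalization, filterByExpr, the cell line and the treatment in 1 model, and Benjamini-Hochberg adjustment over all genes tested (adjusted p under 0.05). The pairing comes from the cell line, since both libraries of a pair are from the same line. The labels do not say whether the cultures were independent. Alternatives were DESeq2 1.42.0, RLE normalization, no low-count filter, models without the cell line or the treatment, and leaving out libraries. Within a cell line, alternatives were a pseudocount of 10, TMM or total-count scaling, log2(TPM + 1), and keeping genes with a count of 0. The fitting code was run on simulated counts in which changed genes had the same fold in each cell line. That setting leaves out differences in response between lines, so it does not show how the paired test performs on these data.

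The members and gene lists were chosen with earlier results of these data known. Genes named are the members, MALAT1, list genes called in the paired test or past 1.5-fold with 1 sign throughout the 3 cell lines with a mean count of at least 50, the 5 genes with the most similar pattern, and others where the text says so. Cell line and cell type markers were named as checks. A further marker is not reported here. Promoters are from RefSeq on GRCh38.p14. Figures were drawn with matplotlib 3.10.9 in Python 3.11.15, with pandas 2.3.3, scipy 1.17.1, and numpy 2.4.6, and tests were run in R 4.3.3.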

Additional observations from a re-analysis of the deposited data

Results flagged for a closer look

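MTF1 moved in opposite directions after si-MALAT1 in different cell lines. Its log2 fold change was higher in H1299 than in H460 by 0.95 and higher in A549 than in H460 by 0.66, since it was below 0 in H460 and above 0 in the others. Each cell line had 1 library per condition, so neither difference was tested.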

How the results depend on the processing

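Under each alternative, 0 members were called in the paired comparison over cell lines. The members with a fold change in each cell line had edgeR or DESeq2 adjusted p between 0.169 and 1 over the alternatives. Without the replicate block for the cell line, 0 genes were lower and 0 higher (161 at an unadjusted p under 0.05), so pairing by cell line changed no call of a member. DESeq2 called 695 genes higher and 638 lower, and edgeR without the low-count filter called 0 lower. With 1 cell line left out in turn, from 0 to 51 genes were higher and from 0 to 112 lower, the largest numbers without H460 and 0 without H1299 or A549. Without A549, the paired values of MT1X and MT1F turned above 0, to 0.11 and 0.23 on the log2 scale.

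Between cell lines, MTF1 turned from 0.33 to -0.08 between H1299 and H460 without the H460 si-MALAT1 library, no other member changed direction, and 127 of the values under alternatives kept their side of the threshold, 17 lost a call, and 6 gained one. The 127 include the contrasts of MT1F with H1299, which had to differ and so say nothing about how firm the calls were. With 1 library left out in turn, from 1 to 5 members differed between A549 and H460 (1 without the H460 or the A549 control library, 5 without either H1299 library, where MT1G, at 0 in A549, passed the filter through H460), and genes ranged from 1680 to 4156 higher and 1883 to 4350 lower. Between A549 and H1299, they ranged from 2810 to 5385 higher and 3020 to 5836 lower, the low ends coming without an A549 library.

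Within cell lines, 43 values of members stayed within their counting interval and 5 did not. In H1299, 0 members passed 1.5-fold on log2(TPM + 1), where adding 1 to MTF1 levels of 1.97 and 3.39 TPM makes the fold change smaller. When genes with a count of 0 were kept, 2 members passed in H1299, MTF1 and MT1E, the latter at 4 and 0 reads. In A549, 0 members passed with scaling to the total count, where MT1X was at -0.58. The cause of the other changes was not tested. With 1 library per cell line and condition and at most 52 reads in each library for MT1E and MT1G, small changes in these genes were not detectable.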
